A study of Mus musculus with 24 samples.

Results

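Tubulin is the protein from which microtubules are built, and 10 genes for its alpha and beta subunits are described here in mouse cerebellum: the beta-tubulins Tubb2a, Tubb2b, Tubb3, Tubb4a, Tubb4b, Tubb5 and Tubb6, and the alpha-tubulins Tuba1a, Tuba1b and Tuba4a. The members are a named list out of 43430 genes in the table, and the list was chosen by a measured value: Tubb2b was lower with the knockout and back up with NDI1. All 10 passed the filter on low counts, as did 15300 genes in all. The libraries hold polyA RNA of whole cerebellum from mice of about 7 weeks of age, in 4 groups of 6 (3 males and 3 females each), labelled cKO, cKO+NDI1, Cre control and NDI1 control. The labels name neither the deleted gene nor the alleles that the controls carry. As known of the study from outside the labels, the knockout removes Ndufs4, a subunit of respiratory complex I, with a Cre driven by Nestin, which acts in the precursors of both neurons and glia, and NDI1, a yeast enzyme that oxidises NADH without pumping protons, is placed at the Rosa26 locus behind a stop that Cre removes.

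Alpha- and beta-tubulin pair into the heterodimers that add to and leave microtubule ends. The isotypes differ mostly in an acidic tail at the carboxyl end, the part to which glutamate chains are added and which motors and other partners touch. Cells also hold the supply of tubulin steady through the messenger RNA itself: when free dimers accumulate, the factor TTC5 recognises the first residues of nascent tubulin on the ribosome, and the messenger RNA is degraded. In brain, Tubb3 marks neurons, Tubb4a is abundant in oligodendrocytes and neurons, Tubb2b and Tuba1a are known for their roles in migrating and growing neurons, and Tubb6 is scarce.

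The start of the reading frame is shown because TTC5 reads it. These are the first 12 coding bases of the GENCODE M21 transcripts (mm10), with the start codon included, in lower case throughout; none is printed for Tubb6.
Tubb2a: atgcgcgagatc
Tubb2b: atgcgagagatc
Tubb3: atgagggagatc
Tubb4a: atgcgggaaatc
Tubb4b: atgagggagatc
Tubb5: atgagggaaatc
Tuba1a: atgcgtgagtgc
Tuba1b: atgcgtgagtgc
Tuba4a: atgcgcgagtgc
All 7 beta-tubulins, Tubb6 included, encode methionine, arginine, glutamate and isoleucine here, and all 3 alpha-tubulins encode methionine, arginine, glutamate and cysteine. The encoded start is the same within each family, and the part of TTC5 in the members' levels was not tested.

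The end of the frame is where many of the isotypes part, though Tubb2a and Tubb2b encode the same residues there. The last 60 coding bases, stop codon included, are given for some of the members that the results turn on, with codons for glutamate in capitals in the beta-tubulins.
Tubb2a: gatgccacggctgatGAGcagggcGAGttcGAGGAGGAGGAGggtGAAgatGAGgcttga
Tubb2b: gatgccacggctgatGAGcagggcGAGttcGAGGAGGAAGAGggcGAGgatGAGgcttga
Tubb3: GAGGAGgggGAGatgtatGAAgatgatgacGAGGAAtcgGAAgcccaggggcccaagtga
Tubb4b: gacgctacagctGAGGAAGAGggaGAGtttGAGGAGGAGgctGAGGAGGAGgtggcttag
Tubb2a and Tubb2b each have 8 glutamate codons in this stretch, Tubb3 has 7 and Tubb4b has 10. For Tuba4a, an alpha-tubulin, the capitals mark the last codon before the stop, the place where many alpha-tubulins carry a tyrosine that enzymes remove from microtubules and put back.
Tuba4a: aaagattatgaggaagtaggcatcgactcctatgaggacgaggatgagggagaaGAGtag
Tuba4a ends on a glutamate codon and so encodes no terminal tyrosine.

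How alike the genes are bears on how reads could be assigned. The coding sequences of Tubb2a and Tubb2b, neighbours on chromosome 13 (34074301 to 34078008 and 34127008 to 34130354 in mm10, minus strand), were 96.5% identical, and their proteins differed at 2 of 445 residues. Tuba1a and Tuba1b, neighbours on chromosome 15 (98949841 to 98953551 and 98931425 to 98934565), were 98.3% identical in coding sequence and differed at 2 of 451 residues. Tubb4a and Tubb4b differed at only 7 residues of protein, but their coding sequences were 83.2% identical. Of all stretches of 50 bases in the main transcript of Tubb2b, 39.3% were found in some other annotated gene, and 33.4% in Tubb2a. The share was 49.6% for Tubb2a, 55.5% for Tubb4b (mostly its pseudogene Tubb4b-ps1), 75.5% for Tuba1a and 83.1% for Tuba1b (both mostly Tuba1c, which ran from 0.664 to 3.10 CPM over the libraries), and 48.8% for Tuba4a, whose transcripts overlap those of Stk16. It was at most 0.184% for Tubb3, Tubb4a, Tubb5 and Tubb6. How the authors' counting treated reads that fit several places, or strand, is not given in the sources used here, so the levels of Tubb2a, Tubb2b, Tubb4b, Tuba1a, Tuba1b and Tuba4a are uncertain to the extent of these shared stretches.

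Depth ran from 7584374 to 19785264 counts per library, with a median of 11547903 in cKO and 15254777.5 or more in the other groups. Gt(ROSA)26Sor, the noncoding RNA of the NDI1 insertion site, was at 23.8 to 47.7 CPM (counts relative to TMM-scaled library sizes) in libraries without NDI1 and at 5.66 to 9.5 in those with it. Ndufs4 averaged 134 CPM in Cre controls and 95.4 in cKO, and the groups overlapped. The counts are per gene and the labels name no deleted part, so this does not check the deletion. The labels give each library as a separate mouse, so the spread within a group is that between mice.

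Compared per kilobase of main transcript, Tubb4a was the most abundant member and Tubb6 the least. In the Cre control, Tubb4a stood at 447 ± 38.0 CPM per kb (mean ± SD, n = 6 here and for all group means below) and Tuba1a, the leading alpha-tubulin, at 305 ± 39.6. The middle of the order was Tubb3 at 165 ± 13.9, Tuba4a at 151 ± 12.1, Tubb5 at 121 ± 5.98, Tubb4b at 108 ± 8.66 and Tubb2a at 103 ± 6.60 CPM per kb. Below them came Tubb2b at 66.3 ± 8.26, Tuba1b at 53.4 ± 7.94 and Tubb6 at 3.08 ± 0.243 CPM per kb. The libraries of neighbours in this order overlapped for Tubb3 and Tuba4a, Tubb5 and Tubb4b, Tubb4b and Tubb2a, and Tubb2b and Tuba1b, and the other neighbours did not overlap. With the gene lengths in the deposited table instead, which for several members sum the lengths of all transcripts, Tubb4a, Tuba1a and Tubb3 still led and Tubb6 was still last, but Tuba4a went from rank 4 to rank 8 (45.9 CPM per kb).

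**Figure D1:**
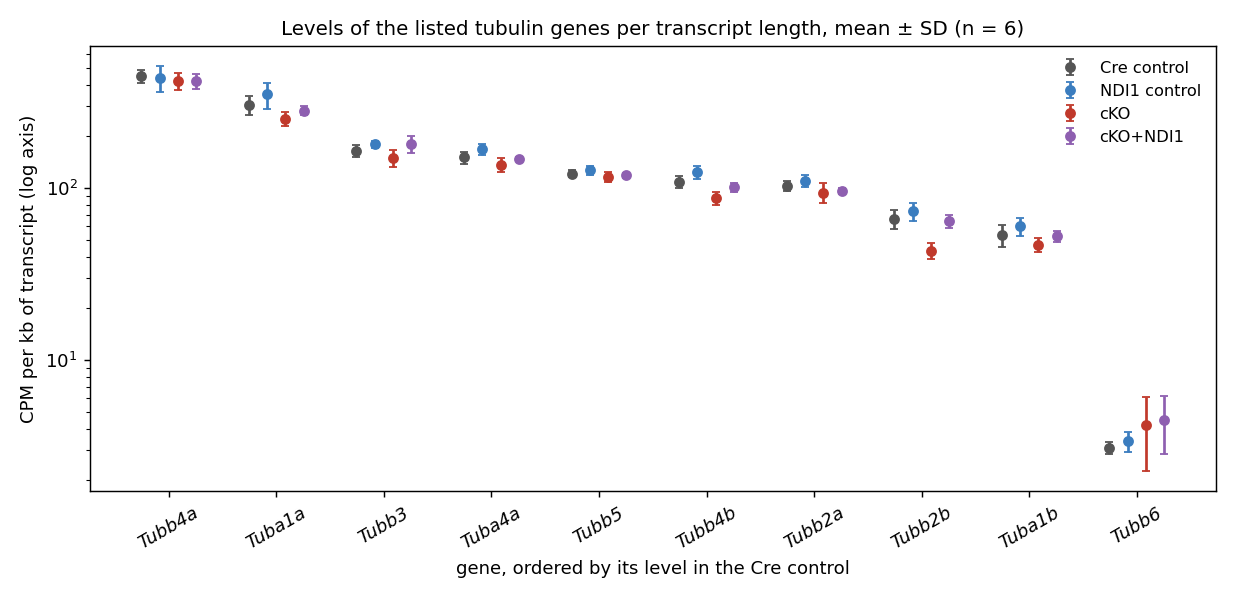
Level of each listed tubulin gene in CPM per kb of main transcript (vertical log axis), ordered by the Cre control; points are group means and bars are SD over 6 libraries. Tubb4a leads at 447 in Cre controls and Tubb6 is last at 3.08, and Tubb2b is the member whose cKO point (43.2) sits apart from the other groups.

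Among the listed beta-tubulins, Tubb2b gave 6.55% ± 0.851 of the summed CPM per kb in Cre controls, 7.03% ± 1.23 in NDI1 controls, 4.71% ± 0.252 in cKO and 6.55% ± 0.778 in cKO+NDI1. Its share in cKO libraries (4.4% to 5.0%) lay below every library of the other groups, of which the lowest was at 5.24%. Tubb4a, which gave 44.1% ± 3.56 in Cre controls, gave 45.9% ± 2.65 in cKO, within the spread. The summed level of the listed beta-tubulins was 1013 ± 19.4 CPM per kb in Cre controls, 1053 ± 74.8 in NDI1 controls, 917 ± 75.4 in cKO and 983 ± 41.5 in cKO+NDI1. The alpha-tubulin sum stood at 509 ± 55.7, 578 ± 71.9, 436 ± 20.6 and 483 ± 22 in the same order. Within the alpha-tubulins the shares kept to a narrow range, with Tuba1a between 57.8% and 60.3% in the group means. In bulk tissue, fewer cells of a type and less RNA per cell cannot be told apart.

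Tubb2b was the member on which the list was chosen, so its values in the groups with the knockout are a description. It stood at 118, 151 and 163 CPM (lowest, median and highest library, in this order below) in Cre controls and at 79.9, 93.9 and 105 in cKO. It stood at 118, 142 and 151 CPM in cKO+NDI1 and at 140, 159 and 186 in NDI1 controls. Every cKO library was below every library of the other groups, while cKO+NDI1 and the Cre control covered nearly the same range. The log2 fold change was -0.61 ± 0.09 (SE, as for all log2 values below) for cKO against Cre control, 0.57 ± 0.09 for cKO+NDI1 against cKO and -0.04 ± 0.08 for cKO+NDI1 against Cre control. Both sexes showed it: males averaged 156 CPM in Cre controls, 97.7 in cKO and 138 in cKO+NDI1, and females 133, 91.0 and 142. Leaving out any single library kept the first difference between -0.67 and -0.58 and the second between 0.54 and 0.64.

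**Figure D2:**
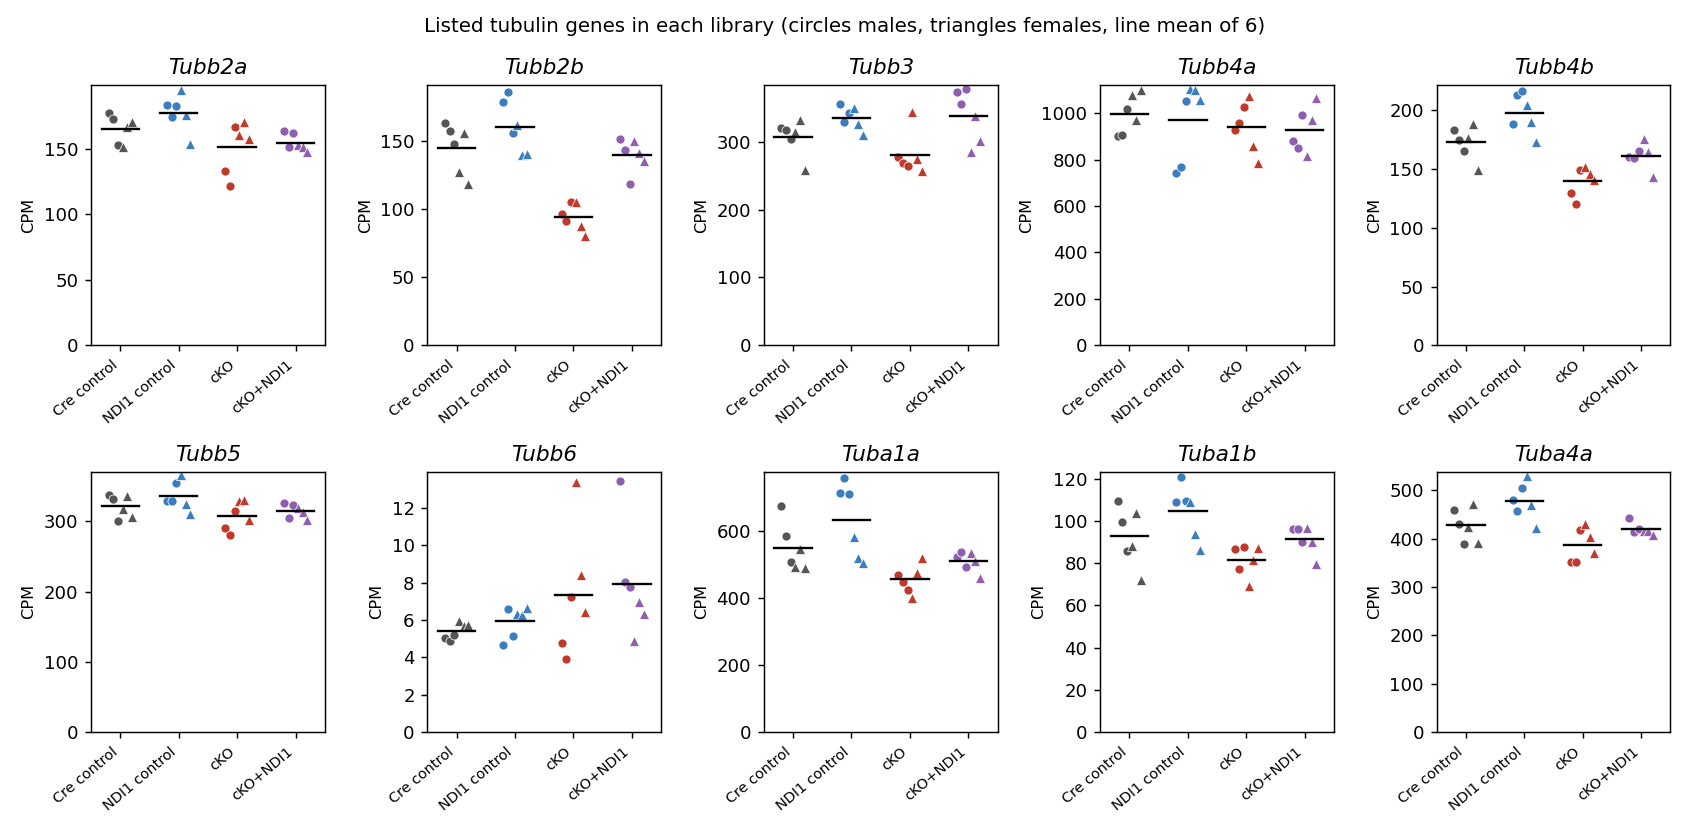
CPM of the 10 listed tubulin genes (1 panel each, linear axis from 0) in every library of the 4 groups; circles are males, triangles females and the line is the mean of 6. In the Tubb2b panel the cKO libraries, from 79.9 to 105 CPM, lie below all others; in each other panel cKO overlaps both the Cre controls and cKO+NDI1.

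Tubb2a, the near-identical neighbour, did not share this pattern. It stood at 152, 169 and 177 CPM in Cre controls, 121, 159 and 170 in cKO, and 148, 152 and 163 in cKO+NDI1, and the groups overlapped throughout. Its log2 fold change was -0.13 ± 0.08 for cKO against Cre control and 0.03 ± 0.08 for cKO+NDI1 against cKO. The difference between these genes was not tested, since Tubb2b was picked for its value.

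Tubb4b, a beta-tubulin made in most cell types and used in cilia, came nearest to Tubb2b. It stood at 149, 175 and 188 CPM in Cre controls, 121, 144 and 152 in cKO, 143, 163 and 175 in cKO+NDI1 and 173, 197 and 217 in NDI1 controls. Every cKO library was below every NDI1 control library, but a single Cre control library, F3 (149 CPM), lay within the cKO range, and all 6 cKO libraries were below the Cre control median. The log2 fold change was -0.31 ± 0.07 for cKO against Cre control and 0.21 ± 0.07 for cKO+NDI1 against cKO.

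Tubb3, the neuronal beta-tubulin, stood at 258, 316 and 331 CPM in Cre controls, 257, 271 and 344 in cKO and 285, 347 and 378 in cKO+NDI1. The cKO range was set by 1 high library, F1 at 344 CPM; the next was at 277. Its log2 fold change was -0.13 ± 0.08 for cKO against Cre control and 0.27 ± 0.08 for cKO+NDI1 against cKO, and without cKO F1 the second was 0.35. The second value was 0.46 in males alone and 0.08 in females alone, a gap that was not tested. Tubb4a, the most abundant member, differed by -0.08 ± 0.10 and -0.02 ± 0.10 in these contrasts, and Tubb5, the ubiquitous beta-tubulin, by -0.06 ± 0.05 and 0.03 ± 0.05. All groups overlapped for both genes.

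Tubb6 was the 1 member with a positive value for cKO against Cre control and the most variable member in cKO and cKO+NDI1. It was at 4.88 to 5.92 CPM in Cre controls and 4.66 to 6.63 in NDI1 controls, against 3.88 to 13.4 in cKO and 4.89 to 13.5 in cKO+NDI1. The SD was 7.89% of the mean in Cre controls, where 7 members varied more, 13.8% in NDI1 controls, where Tuba1a and Tubb4a varied more, 45.9% in cKO and 37.2% in cKO+NDI1. The high libraries were cKO F1 and cKO+NDI1 M1, which left the next at 8.39 and 8.04 CPM. The log2 fold change for cKO against Cre control was 0.41 ± 0.23, and 0.18 without cKO F1. Over all 24 libraries Tubb6 had 2287 counts, against 47127 for Tubb2b.

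The alpha-tubulins all had negative values for cKO against Cre control and positive ones for cKO+NDI1 against cKO. Tuba1a, the main alpha-tubulin of neurons, stood at 491, 526 and 675 CPM in Cre controls, 400, 458 and 518 in cKO, 460, 516 and 536 in cKO+NDI1 and 504, 646 and 759 in NDI1 controls. No cKO library reached the Cre control median, but the ranges overlapped. The log2 fold change was -0.26 ± 0.09 for cKO against Cre control and 0.16 ± 0.09 for cKO+NDI1 against cKO. Tuba1b, made in most tissues, differed by -0.19 ± 0.09 and 0.16 ± 0.09, and Tuba4a, abundant in adult axons, by -0.14 ± 0.07 and 0.11 ± 0.07. Their groups overlapped as well.

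Read as a list, 9 of 10 members were negative for cKO against Cre control (median log2 -0.13, against -0.01 over all genes tested) and 9 of 10 were positive for cKO+NDI1 against cKO (median 0.16, against -0.01). By edgeR's quasi-likelihood test with Benjamini-Hochberg adjustment, 2 members were called in the first contrast (Tubb2b and Tubb4b) beside 4.87% of all genes, and 1 in the second (Tubb2b) beside 0.209%. For cKO+NDI1 against Cre control 0 members were called beside 1.25% of all genes; 8 of 10 were negative, with a median of -0.04. Libraries did not overlap between cKO and Cre control for 1 member and 2.69% of all genes, and between cKO+NDI1 and cKO for 1 member and 0.954%. These contrasts chose the list and share the cKO or cKO+NDI1 libraries, so nothing is read from the counts. Tubb4b was not called with thinning, in a fit to the compared groups alone, or in either sex alone, and Tubb2b in the second contrast was not called in either sex alone.

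**Figure D3:**
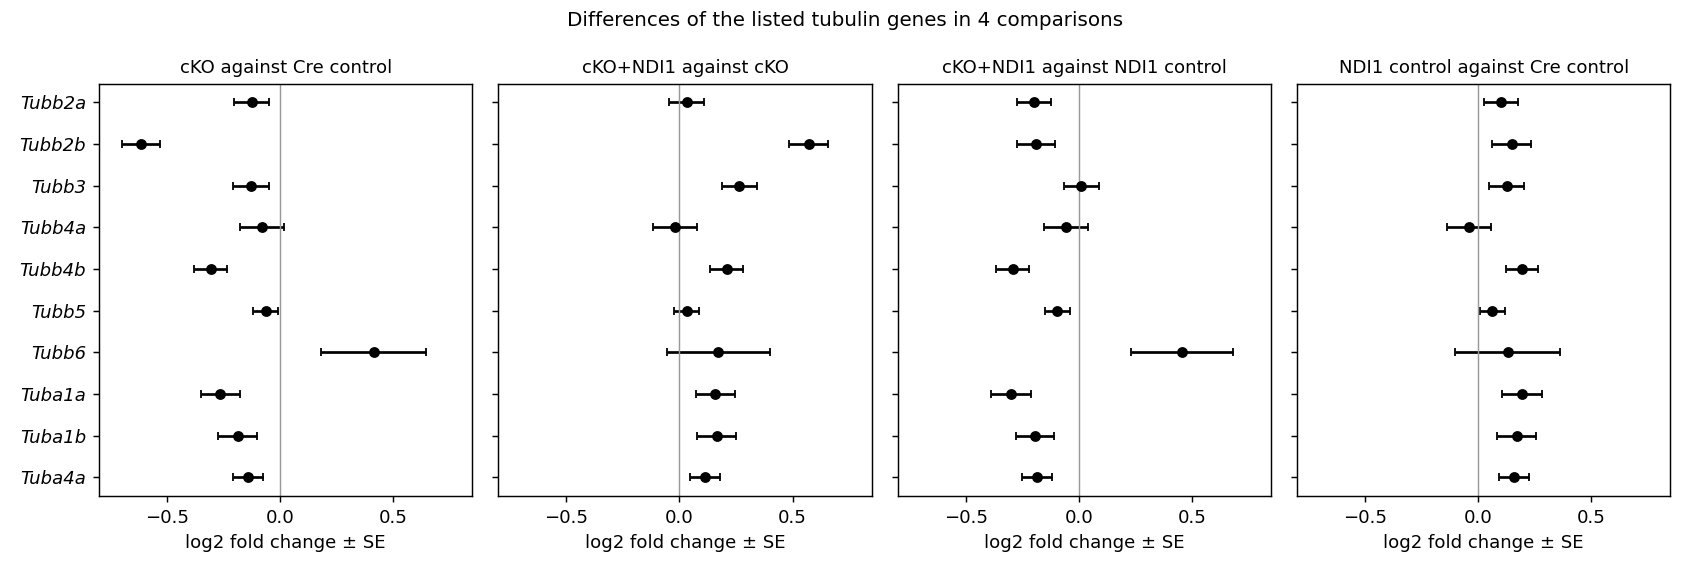
Log2 fold change (horizontal axis) of each listed tubulin gene in 4 comparisons, with bars of 1 SE from the fit over all 24 libraries. Tubb2b is at -0.61 and 0.57 in the first and second panels. The other panels each share 1 group with the contrasts that chose the list. In them no member is beyond -0.30 or 0.20 except Tubb6 at 0.46 for cKO+NDI1 against NDI1 control.

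Where NDI1 was present in both groups, the knockout can be compared in libraries of which the NDI1 controls played no part in the choice of the list. The cKO+NDI1 libraries did play a part, since Tubb2b was picked for its return there. Its value here is thus a description, and the tallies of members include it. The members also vary together over libraries, so a tally does not count separate results. In cKO+NDI1 against NDI1 control, 0 members and 0.0% of all genes passed (0 of 15300 by edgeR, with 686 at an unadjusted p under 0.05; 25 by DESeq2 and 0 by limma-voom). Of the members, 8 of 10 were negative, with a median of -0.19 against -0.01 over all genes, and 6 had an unadjusted p under 0.05. Tubb4b stood at 143, 163 and 175 CPM in cKO+NDI1 and 173, 197 and 217 in NDI1 controls (log2 -0.29 ± 0.07, adjusted p = 0.288 by edgeR), with 6 of 6 cKO+NDI1 libraries below the NDI1 control median. Tuba1a differed by -0.30 ± 0.09 (adjusted p = 0.623 by edgeR), Tuba4a by -0.19 ± 0.07 (0.831) and Tubb2a by -0.20 ± 0.08 (0.937). Tubb2b differed by -0.19 ± 0.08. Libraries did not overlap for 0 members and 0.314% of all genes. In other settings Tubb4b was called with DESeq2 (adjusted p = 0.0447) and Tuba1a with the trend over gene length removed (adjusted p = 0.0417).

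With NDI1 and no knockout, most members had slightly higher values, none past the test. In NDI1 control against Cre control 9 of 10 members were positive (median 0.14 against 0.01 over all genes). Members vary together over libraries, as described below, so this tally does not count separate results. By edgeR 3 members had an unadjusted p under 0.05, as did 1408 of 15300 genes. After adjustment 0 members were called beside 0.00654% of all genes. Tuba1a and Tubb4b differed by 0.20 ± 0.09 and 0.19 ± 0.07 (adjusted p = 0.509 and 0.390 by edgeR), and Tuba4a by 0.16 ± 0.07 (0.479). Tubb2b differed by 0.15 ± 0.08, a description, since its level in the Cre control was part of its choice. This comparison shares its groups with both knockout contrasts, so their values are set side by side and not counted as agreement.

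The knockout's difference with NDI1 minus that without, a contrast that contains the one used to choose the list, was 0.42 ± 0.12 for Tubb2b on the log2 scale. For the other members it lay between -0.07 and 0.14, with 5 of 10 positive in all. No gene was called here by edgeR (0.0% of all genes, 792 at an unadjusted p under 0.05; 13 by DESeq2). Between the sexes, edgeR called 0 members beside 0.085% of all genes. The members nearest to a difference were higher in males: Tuba1a by 0.16 ± 0.06, Tuba1b by 0.14 ± 0.06 and Tubb2b by 0.13 ± 0.06 (adjusted p = 0.291 each by edgeR). With the gene length trend removed these were 0.09, 0.07 and 0.08. In cKO, Tuba1a averaged 446 CPM in males and 464 in females. In cKO+NDI1, Tubb2b averaged 138 CPM in males and 142 in females. Males averaged higher in the other groups for both genes, and in every group for Tuba1b.

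Single libraries moved several members together. Replicate F3 had the lowest value of its group for 5 of 10 members in Cre controls, 7 in NDI1 controls and 6 in cKO+NDI1, and cKO F1 had the highest for 6. The F3 libraries of these 3 groups also had the highest (most positive) slope of expression over transcript length in their groups, at 0.215, 0.135 and 0.158 (log2 CPM deviation per doubling of length), while the group medians were -0.0123, -0.00454 and -0.0311. In cKO, where the median slope was 0.0444, the libraries went otherwise. There F3 had the lowest slope (-0.0931) and the lowest value for 3 members. The slope of cKO F1, highest for 6 members, was 0.0956, above that median. The part of this trend in the members' levels was not tested beyond 1 setting: with it removed, the Tubb2b differences were -0.62 and 0.55. Mitochondrial RNA took 1.89% ± 0.241 of counts in Cre controls, 2.78% ± 0.499 in cKO and 2.57% ± 0.370 in cKO+NDI1, and its part was not tested.

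Most members varied together inside the groups. After subtracting the mean of each genotype and sex, 39 of 45 pairs of members had a positive correlation of log2 CPM over the 24 libraries (median Pearson r 0.398). The highest was that of Tubb5 and Tuba4a (0.924). That of Tuba1a and Tuba1b was 0.826. Tubb4a was negative with Tuba1a (-0.669) and Tuba1b (-0.553), and Tubb6 with Tuba1a (-0.40). These are descriptions over libraries that also share depth, scaling and the length trend above. The part of sequence shared between genes in these values was not tested.

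**Figure D4:**
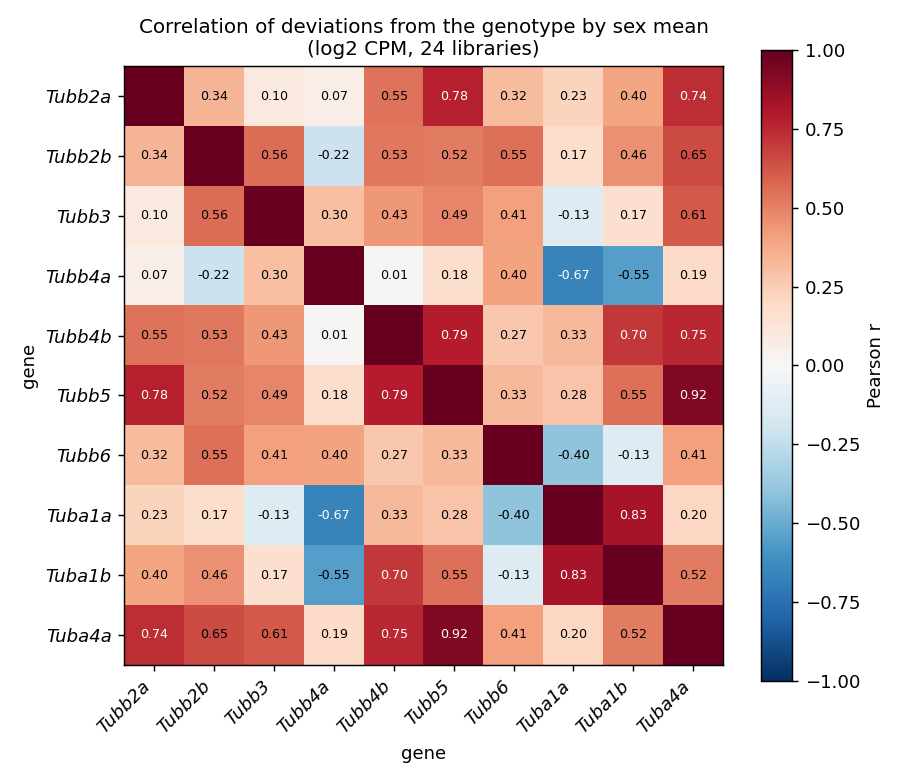
Pearson r between listed tubulin genes of the deviations of log2 CPM from the mean of each genotype and sex, over 24 libraries (both axes list the genes; red is positive and blue negative). The pair Tubb5 and Tuba4a is at 0.92, and Tubb4a with Tuba1a at -0.67.

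The genes whose log2 CPM followed Tubb2b most closely over the 24 libraries, among 12482 genes compared, were Traf1 (r = 0.931, Spearman rho 0.943), an adaptor of TNF receptors, Lxn (0.917), Fn3krp (0.915), Tspan7 (0.887), Acsbg1 (0.880) and Lcat (0.877), the enzyme that esterifies plasma cholesterol. Traf1 averaged 12.4 ± 2.20 CPM in Cre controls, 6.98 ± 0.985 in cKO and 11.4 ± 1.42 in cKO+NDI1, and Lcat averaged 116 ± 15.3, 84.8 ± 11.9 and 114 ± 11. The most opposed were Mbtd1 (-0.857), the taurine transporter Slc6a6 (-0.847), Cpsf6 (-0.835) and Tspan2 (-0.829), a tetraspanin of myelin. These values include the group pattern for which Tubb2b was picked; for deviations from the mean of each genotype and sex, the r of Traf1 was 0.669, that of Lxn 0.746 and that of Tspan7 0.775. By that measure other genes led: Cnn3 (0.859), Gadd45g (0.846), Ldha (0.845), Gadd45b (0.837), Rnf19b (0.835) and Ccnd3 (0.832). Of the members, Tubb4b had the highest Pearson r with Tubb2b over all libraries (0.821, rho 0.817), while Tuba1a (r = 0.728) and Tuba1b (0.732) had higher Spearman values (rho 0.875 and 0.838). Tubb4a was at r = -0.0917 and Tubb6 at -0.135. For the deviations the order was another, with Tuba4a at 0.649, Tubb3 at 0.555, Tubb6 at 0.550, Tubb4b at 0.529 and Tuba1a at 0.172.

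Genes that make, fold and use tubulin were listed for comparison, and the shares called in these lists were near the 4.87% of all genes called for cKO against Cre control. Of the chaperonin subunits, prefoldins and tubulin cofactors that fold tubulin, 17 of 21 were negative for cKO against Cre control (median -0.12 against -0.01 over all genes). Of these, 1 fell, Cct8, a chaperonin subunit, from 220 ± 8.55 to 189 ± 11.1 CPM (log2 -0.22 ± 0.05, adjusted p = 0.0139 by edgeR); it was at 197 ± 9.62 in cKO+NDI1. Among 18 enzymes that modify tubulin, 9 were negative and 1 fell, Ttll1, which adds glutamate chains to tubulin tails, from 27.0 ± 2.52 to 22.1 ± 1.70 CPM (log2 -0.29 ± 0.07, adjusted p = 0.0146 by edgeR). Of 20 kinesin and dynein motor genes 15 were negative, and 1 rose, Klc2, a kinesin light chain (log2 0.20 ± 0.05, adjusted p = 0.0347 by edgeR). In cKO+NDI1 against cKO, 0 genes of these 3 lists were called.

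With 4.87% and 0.209% of all genes called in these contrasts, 0 calls in a list this short is near the background. The lists with 0 called genes in both by edgeR were the other tubulins (6 of 10 tested), the gamma-tubulin complex (8), the factors of tubulin messenger RNA decay (6), microtubule-associated proteins (28), stathmins and severing enzymes (10) and genes of neurite growth and immature neurons (14 of 15 tested). Tuba8, an alpha-tubulin outside the list, stood at 90.0 ± 11.3 CPM in Cre controls, 79.1 ± 7.56 in cKO and 84.3 ± 9.41 in cKO+NDI1. Of the other tubulins tested, Tubg2 came near a call in cKO+NDI1 against cKO (log2 0.31 ± 0.07, adjusted p = 0.0541 by edgeR). Its value for cKO against Cre control was -0.15 ± 0.07. Cnot1 and Cnot2, subunits of the deadenylase that shortens messenger RNA tails, differed by 0.07 ± 0.16 and 0.09 ± 0.06 for cKO against Cre control. Tagln3 and Crmp1, genes of growing neurons, differed by -0.06 ± 0.12 and -0.02 ± 0.09, and 8 of the 14 genes of neurite growth were negative, with a median of -0.03.

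Markers of cell types moved with some of these groups, and their part in the tubulin values was not tested. Markers of Bergmann glia and astrocytes were negative in 15 of 15 for cKO against Cre control, with summed levels of 10952 to 12223 CPM in Cre controls, 9665 to 11217 in cKO and 10268 to 10628 in cKO+NDI1; 2 fell, Fabp7 (log2 -0.97 ± 0.18, adjusted p = 0.00211 by edgeR) and Slc1a3 (log2 -0.28 ± 0.05, adjusted p = 0.00262). In cKO+NDI1 against cKO, 9 of the 15 were positive and 0 were called. Markers of oligodendrocytes and myelin were negative in 15 of 15 for cKO+NDI1 against cKO, with 5 lower. Among these 5 were Mal (log2 -0.67 ± 0.11, adjusted p = 0.0094 by edgeR) and Tspan2 (log2 -0.52 ± 0.08, adjusted p = 0.00728 by edgeR). The markers summed to 12527 to 19601 CPM in cKO and 9985 to 12002 in cKO+NDI1. Their sums were 13204 to 15379 CPM in Cre controls and 10543 to 13166 in NDI1 controls, so they were also lower with NDI1 where there was no knockout. Of 12 granule neuron markers 7 were positive for cKO against Cre control and 1 rose, Grin2c (log2 0.28 ± 0.06, adjusted p = 0.0106 by edgeR). Of 10 Purkinje cell markers 7 were negative and 1 fell, Slc1a6 (log2 -0.34 ± 0.06, adjusted p = 0.00267 by edgeR). Granule neuron markers summed to 6395 to 7161 CPM in Cre controls and 6652 to 7364 in cKO, and those of Purkinje cells to 11727 to 12374 and 10511 to 11220. In cKO against Cre control, where 4.87% of all genes were called, 4 of 9 pericyte and smooth muscle markers, 1 of 12 endothelial, 1 of 9 interneuron and 1 of 15 oligodendrocyte and myelin markers were higher by the test (11 of those 15 were positive), and 0 of 10 microglial, 0 of 8 oligodendrocyte precursor and 0 of 6 choroid plexus markers were called. The interneuron marker was Lypd6, but the interneuron markers together summed to 1041 to 1323 CPM in Cre controls and 923 to 1158 in cKO. In cKO+NDI1 against cKO, beside 0.209% of all genes, 1 of the 8 genes listed for precursors fell, Bcas1 (log2 -0.37 ± 0.07, adjusted p = 0.033 by edgeR). Bcas1 averaged 255 CPM in cKO and 198 in cKO+NDI1. It averaged 264 in Cre controls and 217 in NDI1 controls, so like the myelin markers it was also lower with NDI1 without the knockout. No marker in these lists was at 0 in any group's libraries throughout.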

How the data were processed

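The members and all gene lists were chosen with earlier results of these data known. The deposited table holds raw counts per gene for 24 libraries; the tools named in the submitters' processing notes are HTSeq, STAR, Trimmomatic and bcl2fastq, with the build mm10 and no versions. Its values are whole numbers with no normalization. Groups, sexes and replicate labels come from the labels. With edgeR 4.0.16 and limma 3.58.1 (R 4.3.3), low counts were filtered by group (filterByExpr), TMM factors computed, and robust quasi-likelihood tests run in 1 model of genotype and sex, adjusted by Benjamini-Hochberg over 15300 genes at 0.05. An SE is the log2 fold change divided by the square root of F. Log2 CPM used a prior count of 2.

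Of 43430 identifiers, 42462 had a symbol in GENCODE M21. The deposited gene length equals the sum of all transcript lengths for 71.2% of genes, so levels per kb use the main GENCODE M21 transcript, a departure from the planned deposited length, which is an alternative. Named genes follow a rule: all members, up to 4 called genes per list or else its 2 most abundant, and the genes most and least like Tubb2b. Tuba1c and Tubg2 were named after their values were seen. Within groups, all 60 pairs of libraries differed by more than counting noise. The pipeline was tested on simulated counts. Alternatives were other scalings, DESeq2 1.42.0, limma-voom, no filter, thinning, a length correction, each sex, the compared groups alone, a replicate block and leaving out each library. The end of the reading frame is printed for 5 members, and that of the others is not reported here.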

Additional observations from a re-analysis of the deposited data

Results flagged for a closer look

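In 3 of 40 groups of 6 libraries, 1 library stood far from the others by Dixon's criterion; chance flags about 1 in 20 groups. Tubb3 was at 344 CPM in cKO F1, with the next library at 277. Tubb6 was at 13.5 CPM in cKO+NDI1 M1, with the next at 8.04. Tuba4a was at 443 CPM in cKO+NDI1 M1, with the next at 421.

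In 4 of 50 comparisons looked at by sex, every male library of the first group lay on one side of the mean of the second group's males, and every female library on the other side of the mean of its females. Single libraries of the groups overlapped in some of these, and the differences between the sexes were not tested. For cKO+NDI1 minus cKO, Tubb2a differed by 18.7 CPM in males and -12.3 in females, a gap of 31.0 CPM. Tubb5 differed by 22.8 CPM in males and -9.00 in females, a gap of 31.8. Tubb6 differed by 4.46 CPM in males and -3.35 in females, a gap of 7.81. For cKO+NDI1 minus Cre control, Tubb2b differed by -18.1 CPM in males and 8.65 in females, a gap of -26.7.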

How the results depend on the processing

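Counts of called genes moved with the processing. For cKO against Cre control (745 genes) the count was 425 with no filter, 1157 with DESeq2, 419 with thinning, 1618 with the length trend removed, 263 with only the compared groups, 38 in males and 364 in females, and 504 (without Cre control F2) to 914 (without cKO M3) with 1 library left out. For cKO+NDI1 against cKO (32) it was 21, 107, 19, 78, 13, 2 and 2 in the same order, and 10 (without cKO+NDI1 M2) to 42 (without cKO M3). For cKO+NDI1 against Cre control (191) it was 87 with no filter, 511 with DESeq2, 51 with thinning, 711 with the length trend removed, 14 in males and 2 in females, and 26 (without cKO+NDI1 M2) to 279 (without Cre control M1). For cKO+NDI1 against NDI1 control (0) it was 2 with no filter, 25 with DESeq2, 12 with the length trend removed, 1 in males, and 0 to 3 (without cKO F1). For NDI1 control against Cre control (1) it was 79 with DESeq2, 3 with limma-voom, 63 with the length trend removed, 2 in females, and 1 to 37 (without NDI1 control M3). For the interaction (0) it was 13 with DESeq2 and 0 to 4 (without Cre control M1), and for sex (13) 38 with DESeq2, 8 with thinning, 20 with the length trend removed and 10 to 33 (without cKO M3). The cause was not tested. The fits of 1 sex or of the compared groups also hold fewer libraries.

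The listed tubulins called for cKO against Cre control (2) were 1 with thinning, 4 with the length trend removed, 1 with only the compared groups, 1 in males, 1 in females and 2 to 3 with a library left out. For cKO+NDI1 against cKO (1) they were 0 in males, 0 in females and 1 to 2 with a library left out, and for cKO+NDI1 against NDI1 control (0) 1 with DESeq2 and 1 with the length trend removed. Some values changed sign. For cKO+NDI1 against NDI1 control, Tubb6, at 0.46 in all libraries, was -0.0818 in females and 0.86 in males. Tubb3 was -0.0944 in females, Tubb4a 0.0947 in males, and Tubb3 -0.0143 to 0.0563 with a library left out. For NDI1 control against Cre control Tubb4a was 0.047 in females and -0.0855 to 0.0208 with a library left out. Between sexes Tubb4b was -0.075 with the length trend removed and Tubb6 0.0114 with thinning, and with a library left out Tubb2a was -0.0352 to 0.0176, Tubb4b -0.0159 to 0.0261 and Tuba4a -0.0321 to 0.000476.

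Of calls for cKO against Cre control 62.8% were higher, against 50.1% with the length trend removed and 72.6% with only the compared groups; for cKO+NDI1 against Cre control 129 of 191 were higher, and the share was 86.2% by library size alone and 47.3% with the length trend removed. With the replicate label as a block, the counts were 20 for cKO+NDI1 against cKO and 2 for NDI1 control against Cre control. The labels state no pairing, and deviations of 36 same-label pairs correlated at -0.402 to 0.506, so the libraries were not treated as paired. The median was 0.110, against -0.0397 for different labels, and 11 of 24 libraries matched their own label best. Each was matched among the libraries of its sex in the other groups, 3 in each, where every group holds its label. Many matches are thus due by chance, and whether something is shared by label was not tested. With the deposited gene length 24 of 40 levels per kb moved. At 2287 counts in all, Tubb6 is the member that depth limits.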
